A study of Mus musculus with 16 samples.

Results

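The genes described here are 8 components and regulators of the complement system, C1ra, C1s1, C4b, C3, Masp1, Cfb, Cfd and Serping1, taken by symbol from a table of 27179 rows of normalized read counts. The table covers 4 kinds of Pdgfrb-expressing cells, separated by flow cytometry, from epididymal white adipose tissue taken from C57BL/6 mice on postnatal day 7. The sorted cells were mesothelial-like cells (MLCs), smooth muscle cells (SMCs), adipocyte precursor cells (APCs) and fibro-inflammatory progenitors (FIPs), with 4 libraries each and 16 in all. All 4 share the strain, the age, the depot and the Pdgfrb gate, and no treatment or altered allele is named. The labels do not say whether the libraries of a population came from separate animals or sorts, so the p-values measure spread among libraries that could be technical.

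Complement is a chain of plasma proteins that tags surfaces for removal and can punch holes in membranes. In the classical pathway C1q binds a target and activates the serine proteases C1r and C1s, which cut C4 and C2 to make an enzyme that splits C3. In the lectin pathway collectins and ficolins do the same through MASP proteases, and in the alternative pathway factor B binds deposited C3 fragments and is cut by factor D, so that C3 splitting feeds itself. The liver makes most of the circulating proteins, while stromal, epithelial and adipose cells make them locally. Factor D is also known as adipsin, a secreted product of mature adipocytes.

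Each library rested on 9.20 to 27.5 M reads, with a median of 21.6 M. All 8 genes passed the filter of a normalized count of at least 10 in at least 4 libraries, which left 15024 genes to test, and Masp1 passed it with exactly 4 libraries. Differences are given as log2 fold changes of the normalized count plus 1, the first population over the second, with the SE of the fit. A gene was called when its limma adjusted p was below 0.05 and it changed 2-fold or more.

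The populations largely carried the markers their labels name, with limits. A sum of 9 mesothelial markers stood at 129382 ± 1737 in MLCs and 12039 ± 2342 in SMCs, beside 4093 ± 206 in APCs and 3171 ± 255 in FIPs (SD over 4 libraries). A sum of 7 smooth muscle markers stood at 3868 to 4457 in MLCs and 6789 to 12016 in SMCs, beside 1666 to 5249.8 in APCs and 1749 to 2071 in FIPs. The SMCs thus had the highest smooth muscle sum, but Myh11, the smooth muscle myosin heavy chain, was as high in MLCs (1288) as in SMCs (1262), and SMCs held 9.31% of the mesothelial sum of MLCs. APCs replicate 4 stood apart, with a smooth muscle sum of 5250 against 1666 to 1918 in the other APC libraries. A sum of 6 neutrophil markers was at most 7.64 in any library, near 0. The macrophage markers did not go together. Adgre1 and Ptprc were at most 13.9 in any library, while in MLCs Cd14 was at 98.9 to 135 and Mrc1 at 97.7 to 120. The macrophage sum of 10 genes was 2588 to 3196 in MLCs and 977 to 1208 in SMCs, beside 650.2 to 1385 in APCs and 580.5 to 931 in FIPs. Most of it was Csf1r in MLCs (2210.5) and Cd68 in the other populations. Mature adipocyte markers, a sum of 7 genes, were at 231 to 264 in MLCs and 285 to 681 in SMCs, beside 2052 to 2566 in APCs and 142 to 181 in FIPs. A sum of 6 preadipocyte markers averaged 182945 in APCs, beside 7221 in MLCs, 42123 in SMCs and 65713 in FIPs. Of these, Icam1 was as high in SMCs as in APCs. A sum of 6 FIP markers averaged 596386 in FIPs, beside 121529 in MLCs, 123010 in SMCs and 134924 in APCs. Most of it was Fn1 (542224 to 591184 in FIPs). Of the FIP markers Dpp4 alone was not highest in FIPs, with 8215 to 9132 in MLCs against 1645 to 2219 in FIPs.

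The 8 genes fell into different patterns. C3 and Cfb were far higher in MLCs than in any other population, Cfd and C4b were highest in SMCs, C1ra and C1s1 were abundant everywhere and were called in none of the 6 pairs, Serping1 was abundant everywhere and highest in SMCs, and Masp1 was close to the detection limit. Of 48 tests, 8 genes in 6 pairs of populations, 14 gave a call. In MLCs against SMCs 5 of 8 genes were called, beside a background of 27.9% of all genes tested. The 5 include Masp1, with 1 to 4 reads a library in MLCs and 4 to 12 in SMCs. This count ranged from 4 to 5 when 1 library was left out. The counts were 2 of 8 in MLCs against APCs (background 29.6%), 3 of 8 in MLCs against FIPs (31.1%), 2 of 8 in SMCs against APCs (17.2%), 2 of 8 in SMCs against FIPs (17.9%) and 0 of 8 in APCs against FIPs (10.4%). The shares of 25% and 37.5% are near the background. The libraries of the populations did not overlap for 7 of the 8 genes in MLCs against SMCs (background 61.2%), 3 in MLCs against APCs (62.8%), 5 in MLCs against FIPs (68.9%), 3 in SMCs against APCs (43.2%), 6 in SMCs against FIPs (48.5%) and 3 in APCs against FIPs (39.1%). In APCs against FIPs, 3 genes, C3, Cfb and Serping1, had a limma p under 0.05, unadjusted and adjusted alike, without reaching 2-fold, and edgeR and DESeq2 on recovered reads each called 1 gene.

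**Figure D1:**
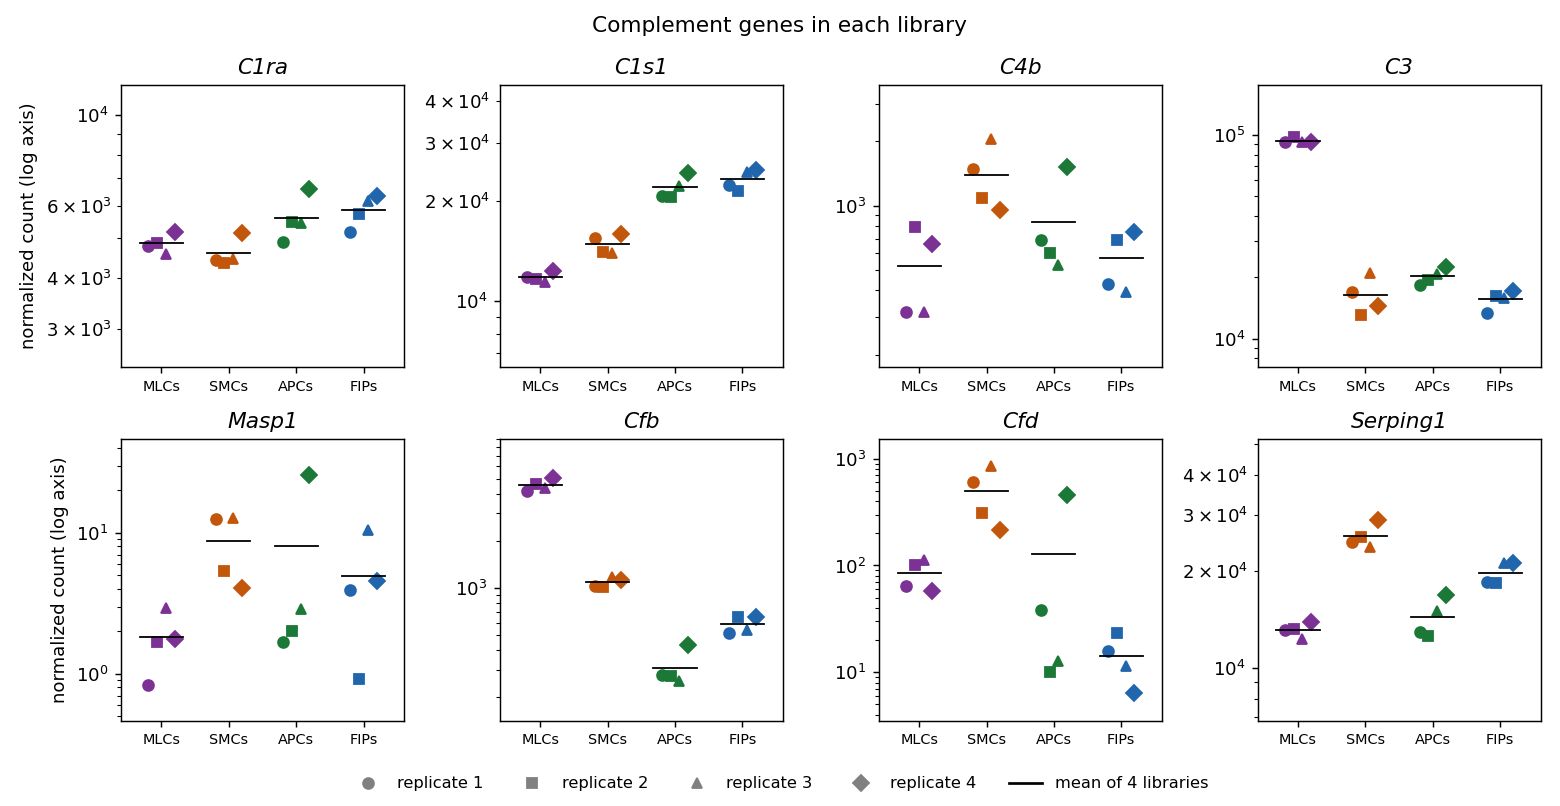
Normalized count of each of the 8 complement genes (log axis) in the 4 libraries of MLCs, SMCs, APCs and FIPs; marker shapes give the replicate and bars the mean of 4 libraries. C3 and Cfb stand highest in all 4 MLC libraries, and APCs replicate 4 stands above the other APC libraries in C4b, Masp1, Cfb and Cfd.

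Upstream sequence is shown for the genes with the highest levels and a RefSeq start site in the table used here. It is given for C3, with its large difference between populations, and for C1ra and C1s1, neighbours on chromosome 6 called in no pair. Each runs from 250 bases before to 50 bases after the transcription start on GRCm38.p6, 5′ to 3′ on the gene's strand, as RefSeq gives it. C3 is at chr17:57228087-57228386 on the minus strand, C1ra at chr6:124512371-124512670 on the plus strand and C1s1 at chr6:124542310-124542609 on the minus strand. Capitals mark matches, on either strand, to the motifs searched.
C3: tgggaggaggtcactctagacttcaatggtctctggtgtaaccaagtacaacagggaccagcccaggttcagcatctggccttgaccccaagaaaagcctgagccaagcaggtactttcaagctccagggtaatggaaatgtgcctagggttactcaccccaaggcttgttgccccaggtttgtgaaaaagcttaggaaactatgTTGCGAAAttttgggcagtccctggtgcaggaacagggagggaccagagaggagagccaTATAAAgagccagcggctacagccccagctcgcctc
C1ra: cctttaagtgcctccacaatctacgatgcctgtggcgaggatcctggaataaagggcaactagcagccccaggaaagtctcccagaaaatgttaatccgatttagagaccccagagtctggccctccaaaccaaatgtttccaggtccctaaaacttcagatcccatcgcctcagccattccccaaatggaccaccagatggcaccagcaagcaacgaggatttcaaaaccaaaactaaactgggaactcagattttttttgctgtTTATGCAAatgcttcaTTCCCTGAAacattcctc
C1s1: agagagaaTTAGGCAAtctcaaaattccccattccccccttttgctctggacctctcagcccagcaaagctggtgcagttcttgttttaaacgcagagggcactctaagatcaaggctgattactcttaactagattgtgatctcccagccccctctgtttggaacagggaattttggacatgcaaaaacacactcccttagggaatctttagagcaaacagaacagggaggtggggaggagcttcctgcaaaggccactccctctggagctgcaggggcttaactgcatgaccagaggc
The motifs were TATAAA, TTCNNNGAA (the core bound by STAT factors), TTGCNNAA (the core bound by C/EBP factors), the interferon regulatory factor core (GAAA, any 2 bases, GAAA) and the NF-kB consensus. In C3 the capitals are a TTGCNNAA match at 45 bases before the start and a TATAAA match 14 bases after it. In C1ra they are a TTGCNNAA match on the reverse strand and a TTCNNNGAA match, a palindrome, 16 and 32 bases after the start. In C1s1 the single match is to TTGCNNAA on the reverse strand, 242 bases before the start. RefSeq gives C1s1 a second start, whose window at chr6:124542272-124542571 begins past that match and holds 0 matches. Of 32851 promoter windows of this length, 13.6% held TATAAA, 8.3% TTCNNNGAA, 10.8% TTGCNNAA, 3.44% the interferon regulatory factor core and 4.51% the NF-kB consensus, so single matches are common, and a match is a description, not a binding site.

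C1ra codes for C1r, the protease that activates C1s. It had 4779, 4864, 4580.3 and 5189 normalized counts in MLCs, 4418, 4347, 4447 and 5143 in SMCs, 4880.1, 5481, 5447 and 6595 in APCs and 5173, 5719.9, 6169.6 and 6347 in FIPs (replicates 1 to 4 in each). Its means ran in the order FIPs, APCs, MLCs, SMCs, and each neighbour in that order overlapped the next. The most distant pair, SMCs against FIPs, did not overlap but differed by -0.35 ± 0.08 (adjusted p = 0.00157). With a span of only 4347 to 6595 over the 16 libraries it varied least of the 8 genes.

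C1s1 codes for C1s, the protease that cuts C4 and C2. Its counts were 11872, 11675, 11429 and 12332 in MLCs, 15568, 14103, 13957 and 15989 in SMCs, 20830.5, 20653, 22274 and 24414 in APCs and 22472, 21456, 24454 and 24917 in FIPs. The libraries of MLCs, SMCs and the 2 progenitor populations formed 3 steps that did not overlap, with MLCs lowest, while APCs and FIPs overlapped (-0.08 ± 0.07, adjusted p = 0.37). The log2 difference was -0.90 ± 0.07 between MLCs and APCs (adjusted p = 6.46e-10) and -0.98 ± 0.07 between MLCs and FIPs (adjusted p = 1.51e-10), both just under the 2-fold limit. The second passed that limit without FIPs replicate 2 (-1.02) and with edgeR on recovered reads (-1.03).

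Per kilobase of exon, which allows levels of different genes to be compared, C1s1 exceeded C1ra in every library. The ratio of C1ra to C1s1 per length was 0.431 ± 0.0105 in MLCs and 0.323 ± 0.0180 in SMCs, beside 0.266 ± 0.0178 in APCs and 0.263 ± 0.0159 in FIPs (SD over 4 libraries). The proteins act as a complex with equal numbers of both, and the transcripts were closest to each other in MLCs. C1ra shares 48% of its 50-base words with its near copy C1rb, and C1s1 shares 21.8% with C1s2. Both copies were far lower, C1rb with a mean of 85.5, 10.5, 14.1 and 17.3 and C1s2 with 31.9, 42.3, 49.9 and 43.7 in MLCs, SMCs, APCs and FIPs, but how reads that match several genes were counted is not given in the sources used here, so all 4 values carry that uncertainty. C1s1 also shares 13.5% of its 50-base words with the antisense gene Gm16567.

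C4b codes for complement C4, the substrate of C1s and of the lectin pathway. It had 318, 792, 316 and 664 in MLCs, 1476, 1084, 2039 and 954 in SMCs, 689.7, 602, 525 and 1522 in APCs and 429, 689.7, 395 and 749 in FIPs. The SMC libraries were all above those of MLCs and FIPs, and APCs replicate 4 reached into the SMC range while the other APC libraries did not. C4b fell in MLCs relative to SMCs (-1.47 ± 0.34, 2.77-fold higher in SMCs, adjusted p = 9.27e-04) and was higher in SMCs than in FIPs (1.29 ± 0.34, 2.44-fold, adjusted p = 0.00379). Between SMCs and APCs the difference was 0.81 ± 0.34 (adjusted p = 0.0523), and without APCs replicate 4 it was 1.14 and was called (adjusted p = 0.00457). MLCs, FIPs and APCs, the 3 lower populations, overlapped one another. C4b shares 34.6% of its 50-base words with C4a, whose means were 31.4, 42.3, 45.3 and 41.1 in MLCs, SMCs, APCs and FIPs, with no call in any pair.

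C3 codes for the protein at which all pathways meet. It had 91973, 97572, 92669.9 and 92255 in MLCs, 16880.2, 13079.5, 20994 and 14400.2 in SMCs, 18314, 19457, 20742 and 22399.9 in APCs and 13355, 16209, 15827 and 17145 in FIPs. Every MLC library was more than 4 times as high as any library of the other populations, and those populations spanned only 13080 to 22400. As these are sorted bulk samples, fewer cells of a type and less RNA per cell cannot be told apart. C3 was 5.82-fold higher in MLCs than in SMCs (2.54 ± 0.11, adjusted p = 2.14e-13), 4.64-fold higher than in APCs (2.21 ± 0.11, adjusted p = 1.13e-12) and 6.01-fold higher than in FIPs (2.59 ± 0.11, adjusted p = 9.04e-14). APCs were next in order, above FIPs without overlap (0.37 ± 0.11 in APCs against FIPs, adjusted p = 0.0124) and overlapping SMCs (-0.33 ± 0.11 in SMCs against APCs, adjusted p = 0.0196), and SMCs and FIPs did not differ beyond their spread (0.05 ± 0.11, adjusted p = 0.754). In MLCs C3 took 0.503% to 0.538% of all normalized counts and ranked 10 of 14478 genes per exon length, at 18203 ± 516 per kb. Its rank was 149 in SMCs, 130 in APCs and 195 in FIPs, so it was also among the more abundant transcripts where it was lowest.

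Cfb codes for factor B, the alternative pathway's catalytic subunit. It had 4161, 4611, 4392 and 5025 in MLCs, 1036, 1019, 1185 and 1131 in SMCs, 276, 274, 256 and 434 in APCs and 517, 655, 537 and 656 in FIPs. The 4 populations did not overlap at all, in the order MLCs, SMCs, FIPs, APCs. Cfb was 4.16-fold higher in MLCs than in SMCs (2.06 ± 0.13, adjusted p = 3.42e-11), 14.9-fold higher than in APCs (3.90 ± 0.13, adjusted p = 1.02e-15) and 7.71-fold higher than in FIPs (2.95 ± 0.13, adjusted p = 7.70e-14). It was also 3.59-fold higher in SMCs than in APCs (1.85 ± 0.13, adjusted p = 5.13e-10). Between SMCs and FIPs (0.89 ± 0.13, adjusted p = 8.59e-06) and between APCs and FIPs (-0.95 ± 0.13, adjusted p = 5.43e-06) it stayed under 2-fold. The pair of APCs and FIPs passed that limit without APCs replicate 4 (-1.13) and without FIPs replicate 1 (-1.01), and SMCs against FIPs did so when libraries were scaled to equal totals (1.11).

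Cfb lies on chromosome 17 in the major histocompatibility region, 88 bases from C2, which codes for its classical pathway counterpart. C2 had 19377, 18836, 18338 and 18657 in MLCs, 3001, 3191, 3585 and 2762 in SMCs, 552, 623, 656 and 903 in APCs and 526, 646, 586 and 672 in FIPs, the same population on top and a steeper drop. The ratio of Cfb to C2 per exon length was 0.332 ± 0.0307 in MLCs and 0.481 ± 0.0553 in SMCs, beside 0.621 ± 0.0670 in APCs and 1.33 ± 0.0561 in FIPs. Per exon length C2 was thus the more abundant of the pair except in FIPs. In counts its FIP mean was not below that of Cfb (608 for C2 and 591 for Cfb). A readthrough gene, Gm20547, shares 73% of the 50-base words of Cfb and 38.7% of those of C2, so the counts of both are uncertain to that extent. Cfb and C2 share no 50-base word with each other.

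Cfd codes for factor D, the protease that cuts bound factor B. It had 64.5, 101, 114 and 58.1 in MLCs, 606, 313, 858 and 217 in SMCs, 38.0, 10.1, 12.9 and 453 in APCs and 15.8, 23.1, 11.5 and 6.35 in FIPs. SMCs were highest and all 4 SMC libraries stood above all MLC and FIP libraries, while APCs replicate 4 lay among the SMCs and its 3 fellow libraries among or near the FIPs. Cfd was lower in MLCs than in SMCs (-2.41 ± 0.79, 5.30-fold higher in SMCs, adjusted p = 0.0122) and higher in MLCs than in FIPs (2.56 ± 0.79, adjusted p = 0.00784). It was higher in SMCs than in FIPs (4.97 ± 0.79, 31.3-fold, adjusted p = 3.05e-05). The difference between SMCs and APCs (3.42 ± 0.79, adjusted p = 0.00125) was 4.58 without APCs replicate 4, but was not called with edgeR on recovered reads (1.72, adjusted p = 0.0646) or with DESeq2 (1.58, adjusted p = 0.149), both fitted without APCs replicate 2 and FIPs replicate 1.

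The level of Cfd in APCs therefore depended on which libraries entered and on the model. MLCs against APCs gave 1.01 ± 0.79 (adjusted p = 0.269), although the arithmetic mean was lower in MLCs (84.2 ± 27.1) than in APCs (129 ± 217) (SD over 4 libraries). Without APCs replicate 4 the same difference was 2.17 and was called (adjusted p = 5.36e-04), while edgeR (-0.83, adjusted p = 0.355) and DESeq2 (-0.99, adjusted p = 0.357) on recovered reads gave the opposite sign without a call. APCs against FIPs gave 1.55 ± 0.79 (adjusted p = 0.13), which was 0.39 without APCs replicate 4 and 2.17 without APCs replicate 2, the second of these called (adjusted p = 0.0372). edgeR (3.42) and DESeq2 (3.61) on recovered reads also called it.

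Masp1 codes for a protease of the lectin pathway. It had 0.838, 1.69, 2.95 and 1.76 in MLCs, 12.6, 5.34, 12.8 and 4.09 in SMCs, 1.69, 2.01, 2.86 and 25.9 in APCs and 3.96, 0.925, 10.5 and 4.53 in FIPs, which in MLCs and SMCs came from 1 to 4 and 4 to 12 reads a library. At this depth the gene was barely detected. It was called lower in MLCs than in SMCs (-1.70 ± 0.68, adjusted p = 0.0347), without overlap of the libraries, but the call was lost with a pseudocount of 8 (-0.73), with quantile normalization (-1.54) and without MLCs replicate 1 (-1.52), 2 (-1.70) or 4 (-1.71). Against APCs the difference of -0.99 ± 0.68 was called only with quantile normalization (-1.64) and DESeq2 (-2.36). The other populations overlapped each other, and the APC mean of 8.13 ± 11.9 rested on replicate 4, whose 25.9 came from 15 reads.

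Serping1 codes for the C1 inhibitor, a serpin that inactivates C1r, C1s and MASP proteases. It had 13087, 13257, 12319 and 13874 in MLCs, 24681, 25557, 23799 and 28866 in SMCs, 12908, 12608, 15043 and 16918 in APCs and 18513, 18331, 21245 and 21251 in FIPs. The order was SMCs, FIPs, APCs, MLCs, with no overlap from SMCs to FIPs or from FIPs to APCs, while APCs and MLCs overlapped (-0.12 ± 0.09 in MLCs against APCs, adjusted p = 0.239). MLCs against SMCs gave -0.97 ± 0.09 (adjusted p = 1.17e-08), just under 2-fold, and -1.003 without SMCs replicate 3. SMCs exceeded APCs by 0.85 ± 0.09 (adjusted p = 1.77e-07), also under 2-fold. Per exon length it was the most abundant of the 8 genes in SMCs and FIPs, at 11065 ± 952 and 8531 ± 702 per kb, with ranks of 28 and 54.

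The inhibitor and its target proteases did not keep a fixed ratio. Per exon length, Serping1 stood to C1s1 at 1.49 ± 0.0345 in MLCs and 2.32 ± 0.143 in SMCs, beside 0.874 ± 0.0548 in APCs and 1.14 ± 0.0254 in FIPs (SD over 4 libraries), and the 4 ranges did not overlap. Per exon length the inhibitor transcript thus exceeded that of C1s in every library of MLCs, SMCs and FIPs, and was below it in every APC library. In counts it was below C1s1 in FIPs as well (mean of 19835 against 23325). C3 stood to C4b at 234 ± 103 in MLCs and 13.5 ± 2.27 in SMCs, beside 31.3 ± 11.6 in APCs and 32.5 ± 8.89 in FIPs per exon length, so C3 exceeded C4b everywhere and most of all in MLCs. Cfb stood to C3 at 0.0885 ± 0.00735 in MLCs and 0.125 ± 0.0206 in SMCs, beside 0.0277 ± 0.00545 in APCs and 0.0688 ± 0.00503 in FIPs, lowest in APCs.

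**Figure D2:**
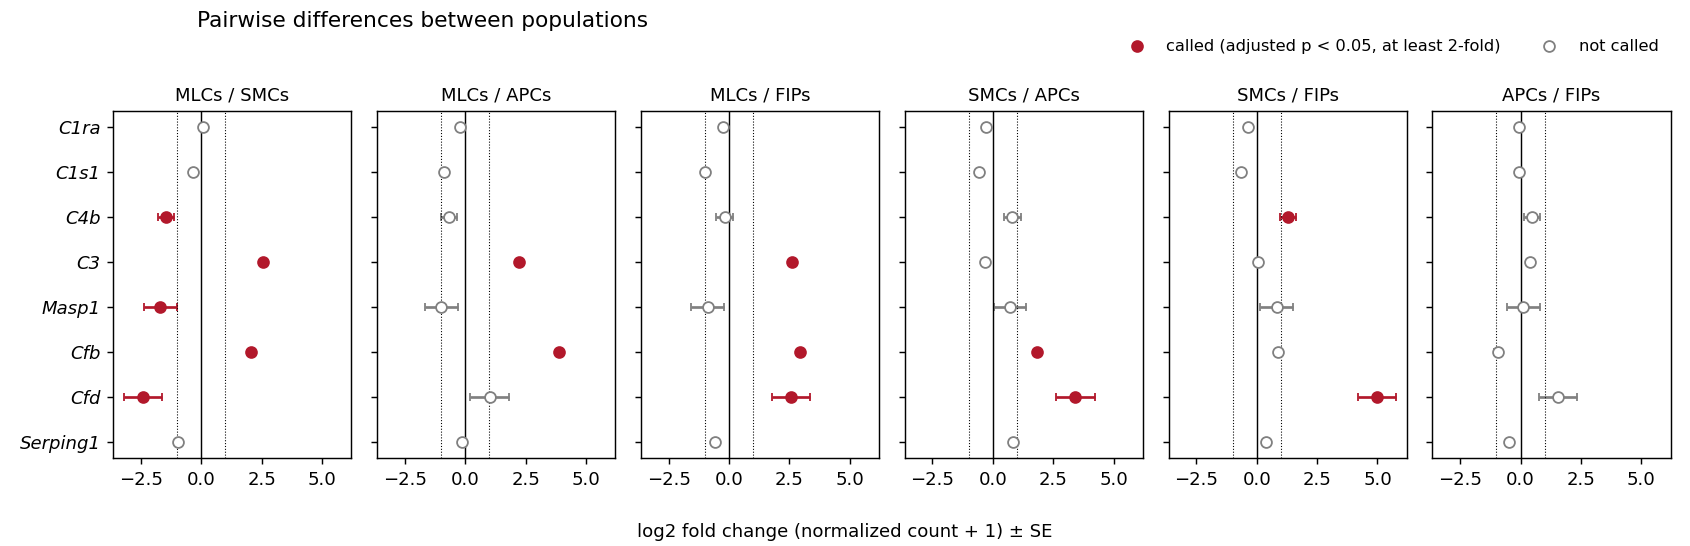
Log2 fold change with its SE for the 8 genes in the 6 pairs of populations, the first population over the second; filled red points were called and open points were not, and dotted lines mark 2-fold. C3 and Cfb lie to the right in all 3 pairs that start with MLCs, and the intervals of Cfd, C4b and Masp1 are the widest.

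**Figure D3:**
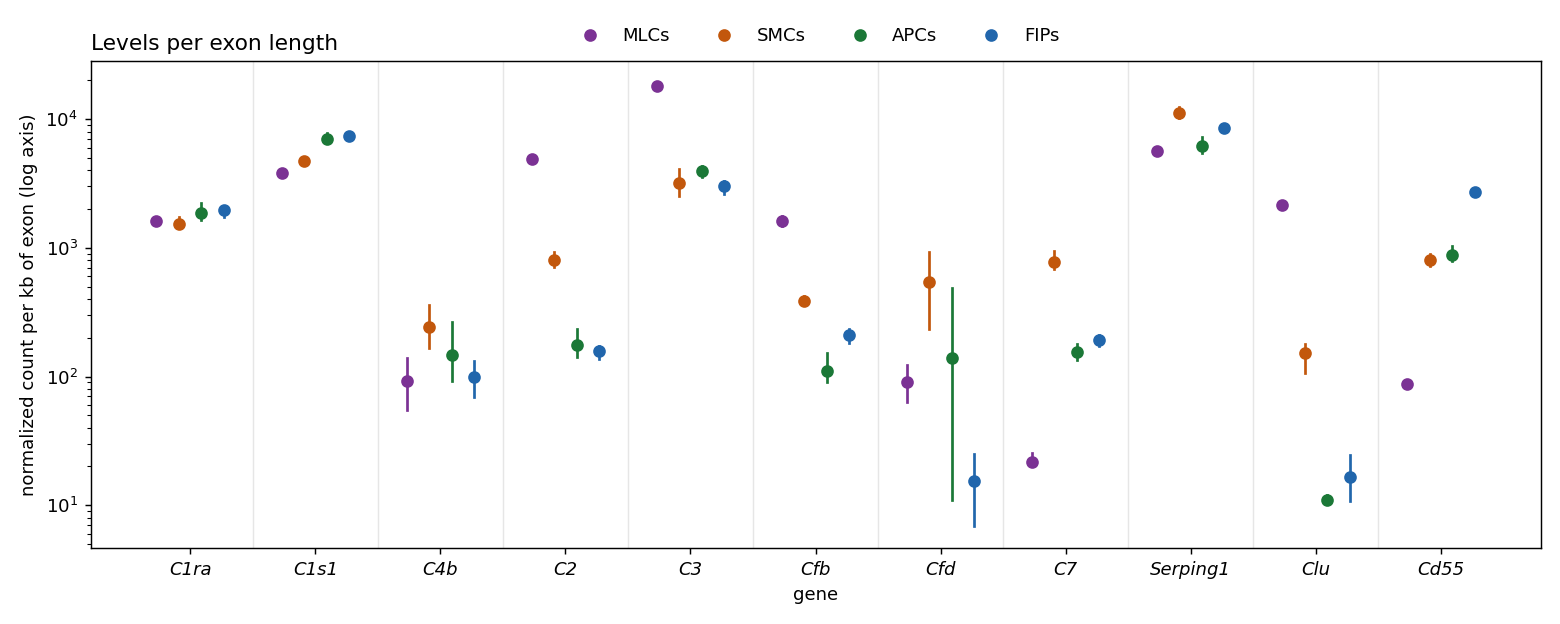
Normalized count per kilobase of exon (log axis) for 7 of the 8 genes and 4 other complement genes in MLCs, SMCs, APCs and FIPs; points are means of 4 libraries and lines run from the lowest to the highest library. C3 in MLCs, at 18203 ± 516 per kb, and Serping1 in SMCs, at 11065 ± 952 per kb, are the highest points.

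Among the SMC libraries the preadipocyte, FIP, macrophage and endothelial marker sums did not have the order of Cfd and C4b. Both genes had the same order as 3 other marker sums, replicate 3 highest, then 1, 2 and 4. In replicates 1 to 4 the smooth muscle sum was 10957, 9525, 12016 and 6789, the mesothelial sum was 12825, 11218, 14811 and 9303, and the mature adipocyte sum was 495, 338, 681 and 285. Masp1 had this order as well, but its 2 highest libraries, at 12.8 and 12.6, were nearly equal and its values rested on 4 to 12 reads. SMCs replicate 3 was the library with the fewest reads (9.20 M), and APCs replicate 4 had the next fewest (11.2 M), against a median of 21.6 M. In MLCs C4b did not follow these markers, with replicates 1 and 3 low and replicates 2 and 4 high. In APCs replicate 4, Acta2, the smooth muscle actin, was at 2388 against at most 221 in the other APC libraries, and Cnn1 and Tagln, also contractile genes, were at 116 and 1463 against at most 9.30 and 318, while Myh11 and Des lay below the highest of the other 3. The mature adipocyte sum of that library, 2253, lay within the 2052 to 2566 of the other APC libraries, but its genes did not go together. Adipoq (398 against at most 239), Plin4 (84.7 against at most 58.3) and Retn (48.4 against at most 39.3) were highest there. Plin1 (1411 against at least 1466), which made most of the sum, and Lipe (273 against at least 314) were lowest there. Whether cells of another kind in these libraries account for their Cfd, C4b, Cfb or Masp1 counts was not tested. Without both APCs replicate 4 and SMCs replicate 3, SMCs against APCs was 4.25 for Cfd and 0.93 for C4b, and MLCs against SMCs was -2.08 and -1.26, of which the C4b difference between SMCs and APCs was under the 2-fold limit and the other 3 were called.

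**Figure D4:**
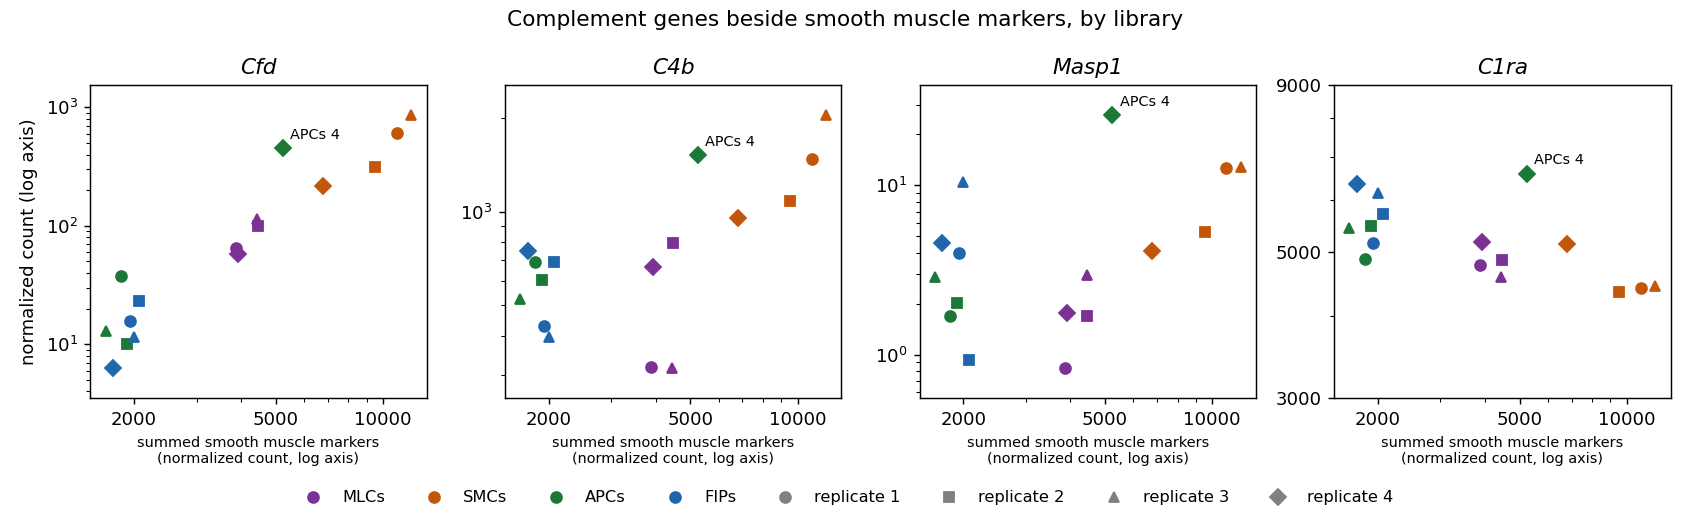
Normalized count of Cfd, C4b, Masp1 and C1ra against the summed normalized count of 7 smooth muscle markers, 1 point per library on log axes; colours give the population and shapes the replicate. APCs replicate 4, at a marker sum of 5250, lies near the SMC libraries for Cfd and C4b, and C1ra stays between 4347 and 6595 across the whole range of marker sums.

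Genes that were high in MLCs were lower in SMCs by different amounts. As a percentage of the MLC mean, the SMC mean was 17.4% for C3, 24.0% for Cfb and 16.7% for C2. Of the other complement genes called higher in MLCs than in SMCs, leaving out C1rb with its single high library, it was 7.12% for Clu, 8.07% for Cpn1, 27.9% for C1rl and 48.3% for Colec12. It was between 2.42% and 8.77% for 8 of the 9 mesothelial markers, a range that holds Clu and Cpn1, and 25.5% for Wt1. Upk3b, a uroplakin of the mesothelium, was at 40551 in MLCs and 3528 in SMCs, beside 32.7 in APCs and 81.0 in FIPs. The mean C3 count was 93617 in MLCs and 16338 in SMCs, beside 20228 in APCs and 15634 in FIPs. What share of C3, Cfb and C2 in the SMC libraries comes from mesothelial cells was not tested.

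Beyond the 8 genes, a list of 50 further complement genes had 24 that passed the filter, and 17 of the 24 were called in at least 1 pair, as were 42.5% of all genes tested. Among the 17, Cpn1 and Colec11 passed the filter mainly through the population where they were high. In MLCs against SMCs 6 of the 24 rose and 7 fell, where 14.4% and 13.5% of all genes did. In MLCs against APCs 6 rose and 6 fell (17.7% and 11.8% of all genes), and so did 6 and 6 in MLCs against FIPs (18.6% and 12.5%). In SMCs against APCs 7 rose and 2 fell (13.5% and 3.79%), and in SMCs against FIPs 6 rose and 3 fell (13.3% and 4.6%). In APCs against FIPs 1 rose and 1 fell (5.22% and 5.2%). The 24 tested genes had a median log2 difference of -0.41 in MLCs against SMCs, -0.27 in MLCs against APCs and -0.21 in MLCs against FIPs, beside 0.04, 0.02 and 0.02 over all genes. The corresponding medians were 0.57 in SMCs against APCs, 0.33 in SMCs against FIPs and -0.02 in APCs against FIPs, beside 0.02, 0.01 and -0.01 over all genes.

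Among genes that start the pathways, C2 was 6.02-fold, 27.9-fold and 31.0-fold higher in MLCs than in SMCs, APCs and FIPs. C1rl, a C1r-like protease, was called in the 3 pairs with MLCs and in SMCs against APCs (1.08), with 387 ± 43.9 in MLCs and 108 ± 17.4 in SMCs, beside 51.4 ± 12.7 in APCs and 82.9 ± 8.26 in FIPs (SD over 4 libraries). In SMCs against APCs it was under 2-fold without APCs replicate 2 (0.91), with edgeR (0.91) or DESeq2 (0.94), with quantile normalization (0.70) and with a pseudocount of 8 (0.98). C1rb was called higher in MLCs than in SMCs (1.78 ± 0.64), but MLCs replicate 3 had 284 and the other MLC libraries at most 24.5. Without that library the difference was 0.82 and without SMCs replicate 3 it was 1.59, neither of them called, and DESeq2 gave no adjusted p.

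The collectins split: Colec12, a membrane scavenger collectin, was higher in MLCs (7846 ± 498) than in SMCs (3788 ± 199.6), and Colec11, a soluble collectin, was higher in SMCs (26.0 ± 4.30) than in MLCs (3.57 ± 2.68), APCs (7.38 ± 5.50) and FIPs (4.90 ± 3.49). Of these the Colec11 call against APCs was lost with quantile normalization (1.54, adjusted p = 0.0839), and that against FIPs with quantile normalization (1.72, adjusted p = 0.0578) and with a pseudocount of 0.1 (2.75, adjusted p = 0.0531). Colec11 reached a normalized count of 10 in 5 libraries, the 4 of SMCs and APCs replicate 2 (13.1). It thus passed the filter mainly through SMCs, and its calls carry that limit. Masp2, the protease that cuts C4 in the lectin pathway, was low throughout and called lower in MLCs (4.92 ± 0.348) than in APCs (12.1 ± 2.24), a call lost in 7 of the 16 fits that left out 1 library, with DESeq2 (-1.34), with no filter on low values (-1.13) and with a pseudocount of 0.1 (-1.27) or 8 (-0.63). Cfp codes for properdin, which stabilises the alternative pathway's enzyme, and it was lower in MLCs (100.4 ± 13.6) than in SMCs (209.7 ± 38.3), just past 2-fold (-1.05) and short of it without MLCs replicate 3 (-0.95), SMCs replicate 3 (-0.97) or SMCs replicate 4 (-0.98), with libraries scaled to equal totals (-0.93) and with a pseudocount of 8 (-0.9986).

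Of the terminal pathway, which builds the membrane pore, 2 of 7 genes passed the filter and C7 alone was called. It had 67.9, 55.8, 56.1 and 53.7 in MLCs, 2012, 1929.7, 1817 and 2528 in SMCs, 423, 363, 402 and 479 in APCs and 465, 561, 509.8 and 512 in FIPs. The MLC libraries were lowest and the SMC libraries highest with no overlap, a difference of -5.12 ± 0.11 (adjusted p = 2.31e-18), and C7 was also higher in SMCs than in APCs (2.31 ± 0.11) and FIPs (2.01 ± 0.11). C8g, the other tested gene of the pore, averaged 9.08 in MLCs and 16.1 in SMCs and was called only with quantile normalization, in MLCs against APCs (-1.18) and against FIPs (-1.03).

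The soluble regulators went in different directions. Clu, which codes for clusterin, an inhibitor of pore assembly, had 7970.1, 7396, 7202 and 7079.6 in MLCs, 592, 540.0, 611 and 368 in SMCs, 41.4, 35.2, 37.9 and 36.3 in APCs and 84.1, 37.0, 50.6 and 57.1 in FIPs. MLCs were 14.3-fold above SMCs (3.84 ± 0.18, adjusted p = 5.39e-13), and SMCs in turn 13.4-fold above APCs (3.75 ± 0.18, adjusted p = 3.46e-12). Vtn, which codes for vitronectin, another inhibitor of pore assembly, had the reverse order, with 5.71 ± 1.18 in MLCs and 66.6 ± 37.0 in SMCs, beside 881 ± 70.0 in APCs and 314 ± 52.4 in FIPs, and was called in all 6 pairs. Cpn1, the catalytic subunit of a carboxypeptidase that inactivates C3a and C5a, was higher in MLCs (34.8 ± 6.48) than in SMCs (2.81 ± 5.62), APCs (0.179 ± 0.357) and FIPs (2.59 ± 0.904). It reached a normalized count of 10 in 5 libraries, the 4 of MLCs and SMCs replicate 4 (11.2). Cpn1 thus passed the filter mainly through MLCs, and its calls carry that limit.

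Membrane regulators protect the cell that carries them. Cd55 codes for decay-accelerating factor, which takes C3-splitting enzymes apart, and it had 412, 410.1, 443 and 426 in MLCs, 3845, 3515, 4311 and 3999 in SMCs, 3845, 4065, 4133 and 5004 in APCs and 13227, 12398, 13244 and 13533 in FIPs. MLCs lay below and FIPs above all other libraries, so that Cd55 was lower in MLCs than in FIPs (-4.95 ± 0.07, adjusted p = 7.27e-21) and lower in APCs than in FIPs (-1.63 ± 0.07, adjusted p = 1.40e-12). In MLCs, the population with the most C3, Cfb and C2, Cd46 (14.7 ± 1.63 in MLCs against 52.9 ± 17.5 in SMCs), a cofactor for C3b cleavage, and Cd55b (1.45 ± 2.44 in MLCs against 11.9 ± 7.27 in SMCs), a further decay-accelerating gene of the mouse, were lower than in SMCs, APCs and FIPs. Cr1l, another gene listed as a membrane regulator, did not share this drop and was not called in any pair. Its mean was 775 in MLCs and 860 in SMCs, beside 837 in APCs and 1037 in FIPs. MLCs against FIPs gave -0.42 for Cr1l (limma adjusted p = 2.02e-04), under 2-fold. The Cd46 call was lost against APCs with a pseudocount of 8 (-0.95) and against FIPs with that pseudocount (-0.96) and with equal totals (-0.92). The Cd55b call against APCs (-1.45) was lost with edgeR (-1.38), DESeq2 (-1.41) and a pseudocount of 8 (-0.38), and in 5 of the 16 fits that left out 1 library, the largest shift being to -1.16 without MLCs replicate 1 or 4. Cd59a, which blocks the pore, was higher in MLCs (171 ± 8.06) and SMCs (252 ± 67.9) than in APCs (87.4 ± 37.5) and FIPs (73.5 ± 13.9), and MLCs against APCs, at 1.04, was under 2-fold without APCs replicate 2 (0.89) or 3 (0.94), with edgeR (0.84), DESeq2 (0.86), quantile normalization (0.76) and a pseudocount of 8 (0.98). Quantile normalization also put Cd59a in MLCs against FIPs under 2-fold (0.83). Susd4, a membrane protein with complement control domains, was highest in FIPs, with 84.8 ± 7.99 in MLCs and 50.3 ± 18.5 in SMCs, beside 116 ± 10.6 in APCs and 184 ± 20.1 in FIPs, and was called in MLCs against FIPs (-1.10, and -0.77 with libraries scaled to equal totals), SMCs against APCs (-1.25) and SMCs against FIPs (-1.90).

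Among the 26 genes that did not pass the filter were C1qa, C1qb, Colec10, Fcnb, Mbl1, Mbl2, Hc, C6, C8a, C8b, C9, Cfi, C4bp, Cpn2, Cpb2, Csmd1 and all 8 receptors, C3ar1, C5ar1, C5ar2, Cr2, Itgam, Itgax, Itgb2 and Vsig4. Their highest value in any library was 32.7, for Csmd1. C1qa and C1qb, 2 chains of the C1q that C1r and C1s need, were thus near 0 in cells with 4347 or more counts of C1ra, and C1qc, the remaining chain, was at most 17.9. Hc, which codes for C5, was at most 8.54, in cells with C3 at 13080 or more.

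**Figure D5:**
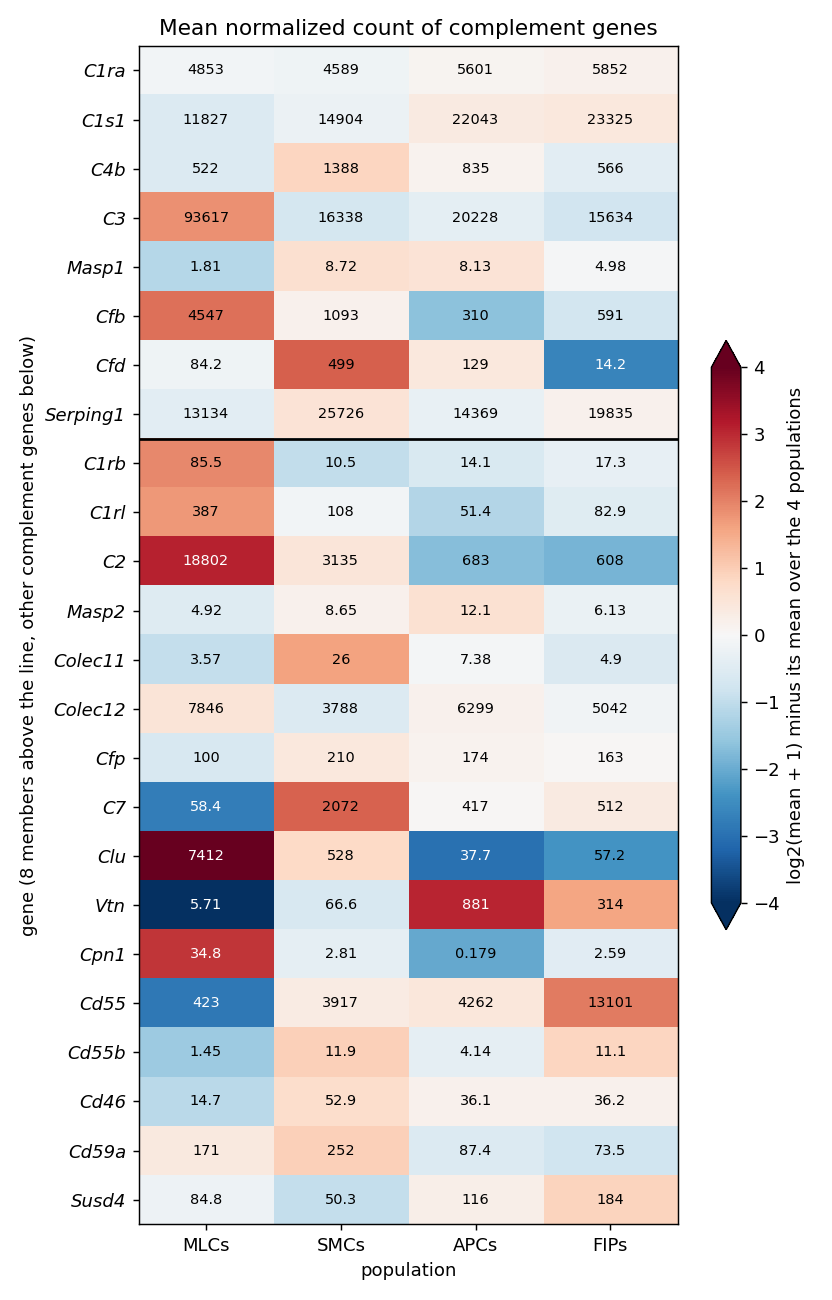
Mean normalized count of the 8 complement genes (above the line) and 16 of the 17 other complement genes called in at least 1 pair (below it) in MLCs, SMCs, APCs and FIPs; colours give log2 of the mean plus 1, less its mean over the 4 populations. C2, Clu, C3 and Cfb are red in MLCs, C7 and Cfd in SMCs, Vtn in APCs and Cd55 in FIPs.

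For each of the 8 genes the 3 tested genes nearest in pattern were found by the mean absolute difference of log2 values over the 16 libraries, each gene centred on its own mean. This measure is a description and carries no test. For C3 they were Slfn9 (0.18), Rbbp8 (0.19) and Dlgap5 (0.20), and for Cfb they were Adap1 (0.19), Gdpd5 (0.22) and Rtn1 (0.23). For Cfd they were Ccn5 (0.25), Col8a1 (0.35) and Spp1 (0.35), and Ccn5 also had its highest mean in SMCs, 374 against 68.3 in MLCs and 90.1 in APCs. Serping1 was nearest to Prnp (0.11), Vit (0.11) and Lamb2 (0.12), C1s1 to Sh3bp5 (0.07), Cdc42se1 (0.07) and Lamp2 (0.07), and C1ra to Tor1aip1 (0.05), Ssr3 (0.07) and Tmem9b (0.07). C4b was nearest to Acta1 (0.33), Tmem86a (0.36) and Ascl2 (0.38), and Masp1 to Prelid2 (0.56), Slc37a2 (0.57) and Timp1 (0.57). Of the 8 genes, these lay farthest from their nearest gene, and no limit for a close match was set.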

How the data were processed

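Libraries were built from RNA of the sorted cells with the NEBNext Ultra II kit for RNA, per the labels' protocols. The authors deposited a normalized signal for 16 libraries, in which each library's counts were divided by its own single factor. HISAT2 2.0.1, featureCounts 1.4.6, DESeq2 1.6.3, Trim Galore 0.4.1 and the builds mm10 and GRCm38 are listed in the submitters' processing notes without stating their use. Not given in the sources used here are the annotation, the strand setting and how multiply matching reads were handled. Columns headed SMLCs were taken as the SMCs of the same number. Rows without a symbol, 1275 in all with 0.0812% to 0.135% of each library, were kept under their gene number.

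All values above 0 were whole multiples of 1 step per column within 0.01 (100%), which gave the reads behind them and so the depth, 9.20 to 27.5 M reads. At that depth a normalized count of 10 rests on few reads and carries a large counting error.

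Populations were compared with limma 3.58.1 under R 4.3.3 (lmFit, contrasts.fit and trended eBayes) on log2(value + 1), 1 model of all 16 libraries with 4 populations, two-sided, with Benjamini-Hochberg adjustment over 15024 genes within each of 6 pairs. The added 1 understates changes of low genes. Alternatives were a pseudocount of 0.1 or 8, no filter, scaling to equal totals, quantile normalization, a replicate block, leaving out libraries, and edgeR 4.0.16 (quasi-likelihood) and DESeq2 1.42.0 on recovered reads of 14 libraries, since FIPs replicate 1 and APCs replicate 2 have steps too near 1 to show that their reads were recovered. The limma fit was tested on simulated data, drawn with a fixed spread setting for all genes and no outlying library. The edgeR and DESeq2 fits were not tested in this way. Exon lengths are unions of GENCODE exons on GRCm38, found for all 8 genes and for 14478 tested genes (96.4%), and shared 50-base words were counted on the same transcripts.

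The 8 genes and all lists were chosen with earlier results of these data known. Named are the 8 genes, the other complement genes called in any pair, the untested ones by name, up to 3 genes of the acute phase and marker lists with the highest means, and the 3 genes nearest each of the 8. Myh11, Adgre1, Ptprc, Cd14, Mrc1, Dpp4, Plin4, Retn, Cnn1, Lcn2, Cr1l and genes next to the 8 were named after their values were seen. A few genes of the complement list are not reported here, though counts over the list include them.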

Additional observations from a re-analysis of the deposited data

Results flagged for a closer look

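In 15 of 128 groups of 4 libraries tested, 1 library lay far from the other 3 by Dixon's test at the 95% level, where chance flags about 1 in 20. That rate need not hold for groups with counts near 0. Among the 8 genes there were 6 such groups of 32, and 4 of them were APCs replicate 4, with 1522 for C4b, 25.9 for Masp1, 434 for Cfb and 453 for Cfd, all above the other APC libraries. The other 2 were C1ra in SMCs replicate 4, high at 5143, and C3 in MLCs replicate 2, high at 97572. Among the other complement genes, C1rb was high in MLCs replicate 3 (284), C1rl was low in SMCs replicate 2 (82.2), and C4a (66.8) and Cfp (269) were high in APCs replicate 1. C7 was high in MLCs replicate 1 (67.9), and Cd55b (5.07) and Cd59b (16.1) were high in MLCs replicate 2. Cpn1 was flagged in SMCs replicate 4 (11.2) and in APCs replicate 3 (0.715, which is 1 read). The other libraries of both populations were at 0 for Cpn1, so any value above 0 would have been flagged. No explanation was tested for any of these values.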

How the results depend on the processing

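Of 1170 recomputed log2 changes of the 8 genes, 1147 kept their side of the threshold, 16 gained a call, 7 lost one and 0 reversed a call. Counts of all genes called stayed within 1.5 times of the main ones under every alternative run. Scaling to equal totals moved the median of all genes by 0.33 in MLCs against FIPs, 0.24 in APCs against FIPs, 0.22 in SMCs against FIPs and 0.11 in MLCs against SMCs, and quantile normalization by -0.12 in MLCs against APCs and against FIPs. When 1 library was left out, the count of the 8 genes called ranged from 4 to 5 in MLCs against SMCs. It ranged from 2 to 3 in MLCs against APCs, 3 to 4 in MLCs against FIPs and 2 to 3 in SMCs against APCs. The count of the 8 genes called in SMCs against APCs, 2, was 1 with edgeR and with DESeq2. In APCs against FIPs it was 0, and 1 with edgeR, with DESeq2 and without APCs replicate 4 and SMCs replicate 3, and it ranged from 0 to 1 when 1 library was left out. For the other complement genes, the 9 called in SMCs against FIPs became 14 with no filter on low values, which tests more genes, and the 2 called in APCs against FIPs ranged from 2 to 4, the 4 without SMCs replicate 1. The cause of these shifts was otherwise not tested.

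With the replicate number as a block, the counts of the 8 genes stayed at 5, 2, 3, 2, 2 and 0 over the 6 pairs. The labels do not say what a number marks, and the numbers were not taken as pairs, since only 6 of 24 same-numbered pairs of libraries had a correlation of their deviations over 0.1. That r was still above 0 in 23 of 24 (-0.03 to 0.17) and highest for the own number in 15 of 24, a hint from the data that numbers share some structure. Depth limits Masp1, Cfd in FIPs and the 26 untested complement genes, whose low values carry a large counting error.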

Other observations

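A list of 19 acute phase genes, secreted proteins that rise in plasma during inflammation as several complement proteins do, had 9 that passed the filter. In MLCs, where C3 and Cfb were highest, 1 of the 9 was called higher and 6 lower than in SMCs, 2 higher and 6 lower than in APCs, and 3 higher and 5 lower than in FIPs. Of all genes tested 14.4% were higher and 13.5% lower in MLCs than in SMCs, 17.7% and 11.8% than in APCs, and 18.6% and 12.5% than in FIPs. Lcn2, which codes for an iron-carrier-binding lipocalin and was chosen after its values were seen, was among the genes higher in MLCs, with 76.2 ± 8.23 in MLCs and 8.95 ± 3.28 in SMCs, beside 12.1 ± 1.51 in APCs and 9.40 ± 9.64 in FIPs (SD over 4 libraries), 8.02-fold, 5.92-fold and 9.65-fold above the other 3. Ptx3, a pentraxin that binds C1q, had 108 ± 23.6 in MLCs and 553 ± 323 in SMCs, beside 5737 ± 1245 in APCs and 10372 ± 1979 in FIPs (SD over 4 libraries). Cp, which codes for ceruloplasmin, had 60.3 ± 3.74 in MLCs and 2200.0 ± 217 in SMCs, beside 3527 ± 744 in APCs and 2249 ± 314 in FIPs, and the serpin gene Serpina3n had 61.7 ± 8.84, 953 ± 186, 1525 ± 259 and 965 ± 162 in the same order of populations. Ptx3, Cp and Serpina3n were called lower in MLCs than in each other population.

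On chromosome 17 the genes between C4b and C2 were not called alike. C2 was called in 5 of 6 pairs, Cfb in 4 and C4b in 2, while of the 5 tested genes between C4b and Cfb that are unrelated to complement, Stk19, Dxo, Skiv2l and Nelfe were called in 0 and Cyp21a1, a low gene with means of 2.48 in MLCs and 8.89 in SMCs, beside 13.5 in APCs and 25.9 in FIPs, in 4. C4a was called in 0. C4b, highest in SMCs, and C2, highest in MLCs, lie within 154 kb of each other. On chromosome 6, C1ra and C1s1 are 6.9 kb apart and were called in 0 pairs, and C1rl, next to C1ra, in 4.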
